A study of Mus musculus with 10 samples.

Results

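The genes described here are 4 galectins, Lgals1, Lgals3, Lgals8 and Lgals9, in mouse embryonic stem (ES) cells treated with MB-3 or with its vehicle DMSO. They were selected from the 30677 genes of the count table as a named family in which Lgals9 was known to differ between the treatments, so that the values of MB-3 against DMSO chose them and are given below as a description without a test. All 4 were among the 20027 genes with enough counts to enter the fit across genes. RNA was taken from TNGA cells, an ES line with a GFP reporter at 1 allele of the pluripotency gene Nanog, grown in serum and LIF. The study describes this line, used for all libraries here, as heterozygous for Nanog. The 3 DMSO libraries came from cells given DMSO for 48 hours, and the 3 MB-3 libraries from cells given 100 μM MB-3, an inhibitor of the histone acetyltransferase Kat2a, for the same time, with DMSO at 0.1% in both. Libraries of each treatment carry the letters A, B and C, and held 42270312 to 51137896 counts, so that 1 CPM (the usual unit of counts scaled to the normalised library size) stood for 42.9 to 50.2 counts. No sort of the cells is described, and a single cell line was used. The study describes treatment in triplicate, and no source used here says whether the triplicates were separate passages or days, so p-values measure the spread between these libraries.

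Galectins are lectins that bind β-galactoside sugars on glycoproteins. They are made in the cytosol, leave the cell by a route other than the classical secretory pathway, and act both outside the cell, where they cross-link receptors and matrix proteins, and inside it. Lgals1 encodes a prototype galectin that pairs with itself. Lgals3 encodes the chimera type, in which a flexible tail joins the sugar-binding domain, whereas Lgals8 and Lgals9 encode tandem-repeat galectins with a pair of different sugar-binding domains in the same chain. Inside cells, galectin-3, galectin-8 and galectin-9 gather on endosomes and lysosomes with broken membranes, where their sugar ligands become exposed. Lgals9 is also known as a gene that interferons induce in many cell types.

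In the GENCODE M21 annotation of GRCm38, Lgals1 (ENSMUSG00000068220) lies on chromosome 15 from 78926725 to 78930465 on the plus strand, with 5 exon blocks that cover 903 bp. Lgals3 (ENSMUSG00000050335) lies on chromosome 14 from 47367751 to 47386160, also on the plus strand, with 8 blocks over 1858 bp. Lgals8 (ENSMUSG00000057554) lies on chromosome 13 from 12439415 to 12464944 on the minus strand, with 12 blocks over 3688 bp. Of the exon sequence of Lgals8, 155 bp also belong to Heatr1 on the opposite strand, and the use of strand in the counting is not given in the sources used here, so a part of its counts may be those of Heatr1. Lgals9 (ENSMUSG00000001123) lies on chromosome 11 from 78962974 to 78984946 on the minus strand, with 11 blocks over 2137 bp. The 4 genes thus lie on 4 chromosomes.

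The promoter of Lgals9 is shown because this gene had the largest difference among the 4 members and because interferon-inducible genes were measured beside it. The stretch runs from 250 bases before the RefSeq start site to the base at position 30 after it (GRCm38.p6, chr11:78984895-78985174, minus strand, 280 bases), and capitals mark 2 matches of the core of the interferon-stimulated response element.
Lgals9 promoter: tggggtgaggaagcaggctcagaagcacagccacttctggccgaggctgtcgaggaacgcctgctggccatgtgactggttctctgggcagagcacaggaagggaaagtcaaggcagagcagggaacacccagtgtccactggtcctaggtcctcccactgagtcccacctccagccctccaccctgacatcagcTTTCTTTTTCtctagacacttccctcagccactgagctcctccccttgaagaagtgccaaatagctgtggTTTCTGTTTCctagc
The core was searched on both strands as GAAA, any 2 bases and GAAA, and both matches read in reverse on the strand shown. The first lies 55 to 46 bases before the start site, outside the annotated exons, and the other 15 to 24 bases after it, within an exon. The core was present in 1131 of 32851 RefSeq promoters of 300 bases, or 3.44%. The promoters of Lgals3 and Lgals8 did not hold these letters. For each gene a single RefSeq start site was searched. The stretches were chr14:47373610-47373909 for Lgals3 and chr13:12461689-12461988 for Lgals8, which lie inside the gene bounds given above. The other motifs searched on both strands were the TATA box (TATAAA), the GC box (GGGCGG), the CCAAT box (CCAAT), the E-box (CACGTG) and the STAT site (TTCNNNGAA), which 13.6%, 35.7%, 37.4%, 7.15% and 8.30% of promoters held. None of these matched in the promoter of Lgals9. The promoter of Lgals3 held 2 GC boxes and 1 CCAAT box, and that of Lgals8 held 2 CCAAT boxes. Of the 300 bases, 58% were G or C in Lgals9, 51.7% in Lgals8 and 67% in Lgals3, against a median of 52.7% over all promoters. A match is a run of letters and not a measured binding site.

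Levels were compared between the galectins per length of exon, as CPM per kilobase of exon. Lgals1 was the most abundant, Lgals3 was next, and Lgals9 and Lgals8 were the lowest. In DMSO the level of Lgals1 was 97.6, 98.9 and 107 in replicates A, B and C, a mean of 101 ± 5.19 (SD, n = 3). Lgals3 had levels of 11.5, 15.4 and 11.2, with a mean of 12.7 ± 2.31. Lgals9 had levels of 2.90, 3.32 and 2.69, with a mean of 2.97 ± 0.322. These DMSO levels placed Lgals1 at percentile 95.9 of all genes tested, Lgals3 at 75.2 and Lgals9 at 46.4. Lgals8 had levels of 2.28, 2.40 and 2.23 in DMSO, with a mean of 2.30 ± 0.0846 and percentile 41.7. The order of Lgals1, Lgals3, Lgals9 and Lgals8 was the same in every library of both treatments, and no range of one gene met that of its neighbour within a treatment. In DMSO the gap between Lgals9 and Lgals8 was small, as the lowest level of Lgals9, 2.69, stood just above the highest of Lgals8, 2.40.

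In MB-3 the order was kept and the distance between Lgals9 and Lgals8 was larger. The MB-3 level per kilobase was 78.1, 86.2 and 79.8 for Lgals1, with a mean of 81.4 ± 4.30. For Lgals3 it was 10.2, 13.1 and 11.1, with a mean of 11.5 ± 1.46. Lgals9 had levels of 4.43, 5.75 and 4.91, with a mean of 5.03 ± 0.671. The 3 MB-3 levels of Lgals9 all lay above its DMSO levels, whereas those of Lgals1 all lay below. For Lgals8 the levels were 2.14, 2.13 and 2.27, with a mean of 2.18 ± 0.0792, which overlapped the DMSO levels. Summed over the 4 genes, the level was 114, 120 and 123 in DMSO and 94.8, 107 and 98.1 in MB-3. Lgals1 made up 84.9% ± 2.28 of this sum in DMSO and 81.4% ± 0.936 in MB-3, and the share of Lgals9 was 2.49% ± 0.295 in DMSO and 5.02% ± 0.349 in MB-3. Lgals3 held 10.7% ± 1.92 and 11.4% ± 0.722, and Lgals8 1.93% ± 0.108 and 2.19% ± 0.173. The sum was mostly Lgals1, which was lower in MB-3. Mean shares of Lgals3 and Lgals8 were thus higher in MB-3 although their mean levels were lower. In proportion, the share of Lgals9 also rose by more than its level.

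**Figure D1:**
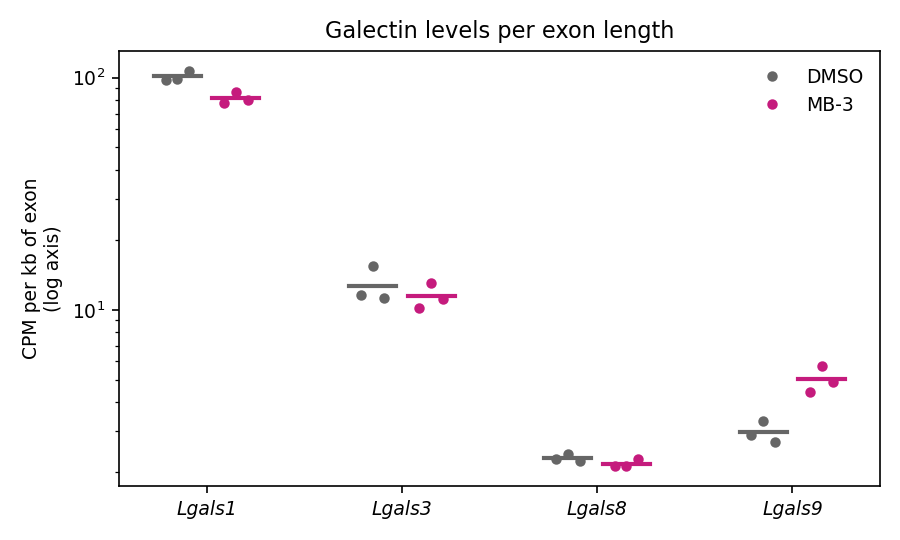
Level of each galectin in CPM per kilobase of exon (log axis), with a point for each of the 3 DMSO and 3 MB-3 libraries and a line at the mean of the group. Lgals1 is near 101 in DMSO, Lgals3 near 12.7, and Lgals9 and Lgals8 near 2.97 and 2.30, with Lgals9 higher in MB-3 at 5.03.

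The values of the 4 genes in MB-3 and DMSO are described next. Lgals9, whose product binds receptors such as Tim-3 on immune cells and gathers on damaged lysosomes, was the member with higher values in MB-3. Its counts were 298, 356 and 274 in DMSO A, B and C and 471, 540 and 450 in MB-3 A, B and C. In CPM these were 6.19, 7.10 and 5.75 in DMSO and 9.46, 12.3 and 10.5 in MB-3. The lowest MB-3 library was above the highest DMSO library, and B was the highest of its group in both treatments. The DMSO mean was 6.35 ± 0.688 and the MB-3 mean 10.7 ± 1.43 (SD, n = 3 each), which is 1.69 times as high. The log2 fold change of the edgeR fit with treatment as the only term was 0.76 ± 0.12 (SE). Within letters, the log2 ratio of MB-3 to DMSO, taken here and below on CPM + 0.5, which makes it smaller than on CPM, was 0.57 for A, 0.75 for B and 0.81 for C, so all 3 pairs went the same way. This fit called Lgals9 and none of the other 3 members at an adjusted p of 0.05, where 41 of all genes tested were called (0.205%). As the galectins were chosen on this contrast, nothing is read from this count.

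Lgals1 had lower values in MB-3, and its groups did not overlap. Its product, galectin-1, binds integrins and laminin outside the cell. The CPM of Lgals1 was 88.2, 89.3 and 96.8 in DMSO and 70.5, 77.9 and 72.1 in MB-3. The mean was 91.4 ± 4.68 in DMSO and 73.5 ± 3.88 in MB-3, a difference of -19.6%, and the log2 fold change was -0.32 ± 0.062 (SE). The log2 ratio was -0.32 for A, -0.20 for B and -0.42 for C. C had the highest DMSO level and the largest difference between treatments.

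Lgals3 and Lgals8 overlapped between the treatments. Lgals3, whose product forms lattices on glycosylated receptors, had a CPM of 21.4, 28.6 and 20.8 in DMSO and 18.9, 24.3 and 20.7 in MB-3. Both B libraries stood above the other libraries of their group, and the log2 fold change was -0.15 ± 0.12 (SE). Within letters, the log2 ratio of Lgals3 was -0.175 for A, -0.231 for B and -0.011 for C, so it was negative in every letter. Lgals8, whose product recruits autophagy adaptors to damaged endosomes, had a CPM of 8.41, 8.83 and 8.22 in DMSO and 7.88, 7.86 and 8.37 in MB-3. Its log2 fold change was -0.080 ± 0.090 (SE), against a median SE of 0.10 over all genes tested. The log2 ratio of Lgals8 was -0.089 for A, -0.159 for B and 0.024 for C. Of the 4 members, the groups of Lgals9 (higher) and Lgals1 (lower) did not overlap, as was so for 15.6% of all genes tested, and nothing is read from this number either.

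**Figure D2:**
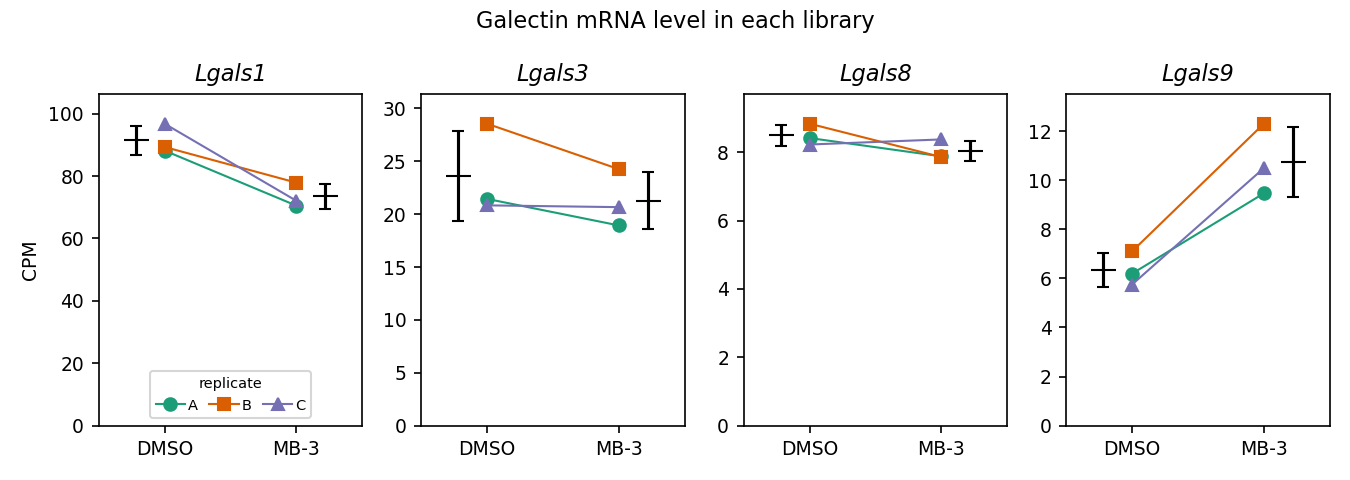
CPM of each galectin in the 3 DMSO and 3 MB-3 libraries, with a line joining libraries of the same replicate letter and a black bar for the mean ± SD of each treatment. Lgals9 rises along all 3 lines, from a mean of 6.35 to 10.7 CPM, Lgals1 goes down along all 3, from 91.4 to 73.5, and B is the highest line for Lgals3 and Lgals9.

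With the replicate letter as a block in the fit, which compares MB-3 with DMSO within each letter, 1425 of all genes tested were called (7.12%), of which 644 were higher in MB-3 (3.22%) and 781 lower (3.90%). The contrast with the block also took part in the choice of the genes, so nothing is read from the blocked fit having called Lgals9 and, unlike the fit without the block, Lgals1. The log2 fold change of Lgals1 was -0.32 ± 0.049 (SE) with the block, so that the estimate was as without it and the SE was smaller. For Lgals9 it was 0.76 ± 0.089. The SE of Lgals3 was 0.062 with the block and 0.12 without it, and its log2 fold change was -0.14, which was not called. For Lgals8 the log2 fold change was -0.080 ± 0.088 with the block.

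Differences between the letters were not used to choose the genes and were tested with the edgeR F test on both letter terms, with treatment held and with Benjamini-Hochberg adjustment over all genes tested. This test called 1570 genes (7.84%) and 1 of the 4 galectins. Lgals3 differed between letters (adjusted p = 0.00125), and its level in B, as log2(CPM + 0.5), was above the mean of A and C by 0.42 in DMSO and by 0.29 in MB-3. Without DMSO replicate B this call was lost, with an adjusted p of 0.179. For Lgals9, B was above the mean of A and C by 0.23 and 0.29 on the same scale, with an adjusted p of 0.129 for the letters. The adjusted p was 0.571 for Lgals1 and 0.974 for Lgals8. The difference between letters thus passed the test in Lgals3 and did not pass it in the other 3 galectins, and whether it differed between the genes was not tested.

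The log2 fold changes under 13 alternatives to the fit are given as a description of the same contrast, and nothing is read from how many of them called a member. For Lgals9 the value was 0.65 to 0.85 with 1 library left out and 0.75 to 0.76 under the other alternatives. It was not past the threshold without DMSO A (0.74), DMSO C (0.69), MB-3 A (0.84) or MB-3 B (0.65). For Lgals1 the value was -0.36 to -0.27 with 1 library left out. Lgals3 was near 0 without DMSO B, at 0.009, and as low as -0.26 without MB-3 B. Lgals8 was between -0.11 and -0.051 with 1 library left out.

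**Figure D3:**
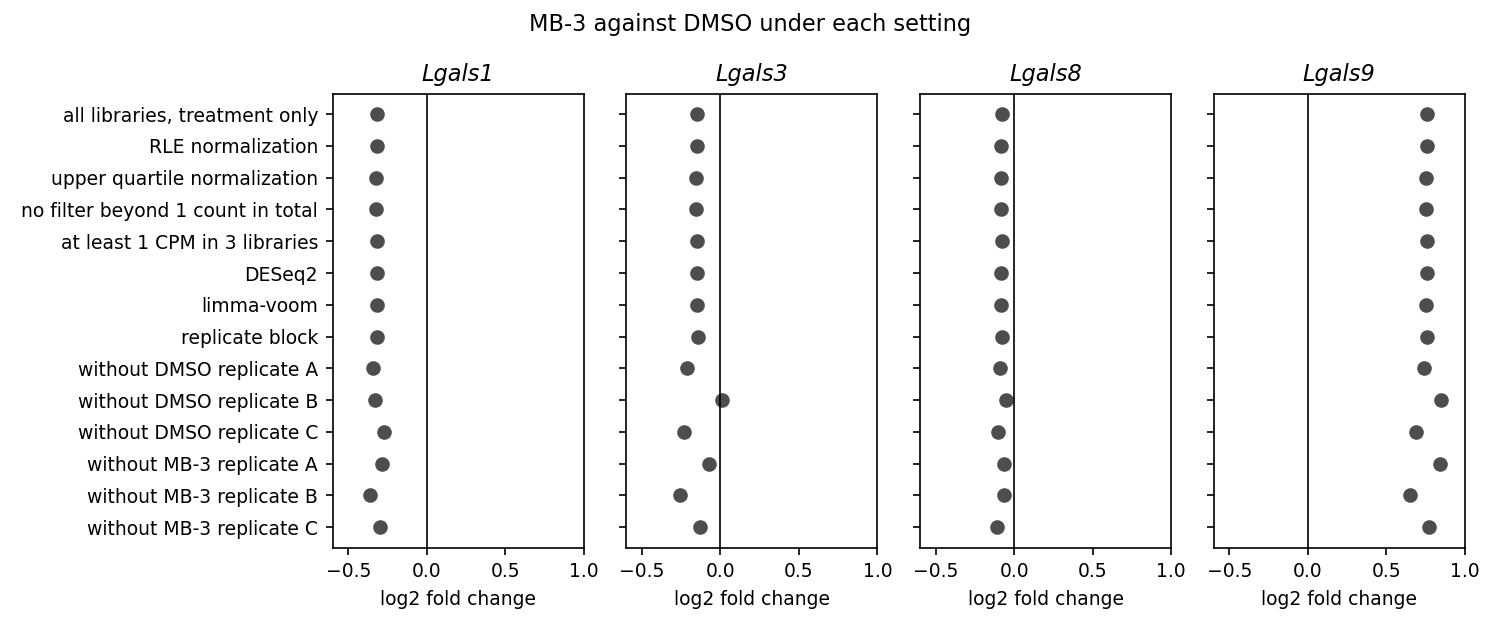
Log2 fold change of MB-3 against DMSO for each galectin, with 1 point for all libraries and 1 for each of 13 alternatives. The points of Lgals9 lie between 0.65 and 0.85, those of Lgals1 between -0.36 and -0.27, and those of Lgals3 and Lgals8 between -0.26 and 0.009.

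The rest of the galectin family was low or showed no call. Lgalsl, which encodes a galectin-related protein without the usual sugar binding, had 23.1 ± 2.14 CPM in DMSO and 23.1 ± 0.636 in MB-3, and its log2 fold change was -0.0018 ± 0.077 (SE), with an edgeR adjusted p of 0.995. Lgals4, a tandem-repeat galectin of the gut epithelium, had 1.13 ± 0.117 CPM in DMSO and 1.14 ± 0.338 in MB-3. Lgals12, a galectin of fat cells, had 11, 18 and 27 counts in DMSO and 5, 25 and 13 in MB-3. Lgals4 and Lgals12 had adjusted p-values of 1.00 and 0.889 in the edgeR fit. Lgals2, a prototype galectin of the gut, had 0 counts in each DMSO library and 5, 1 and 1 in the MB-3 libraries, and shares 38 bp of exon with Cdc42ep1 on the opposite strand. Lgals7, known from stratified epithelium, had 5, 6 and 8 counts in DMSO and 5, 7 and 5 in MB-3, and Grifin, a galectin-related gene of the lens, had 1, 8 and 3 counts in DMSO and 4, 0 and 2 in MB-3. These last 3 genes were too low to be tested. No row of the table was matched to Lgals6. The pseudogene Lgals1-ps1 had 0.474 CPM in DMSO and 0.491 in MB-3, and reads that it shares with Lgals1 could have been split between them.

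Of 19 glycoproteins that galectins are known to bind, 16 were tested. Their median log2 fold change was -0.042, beside -0.001 over all genes tested, and the fit with treatment alone called 0 of them. At an unadjusted p under 0.05 the count was 4, where the background was 10.9% of genes. With the replicate block 1 was higher and 2 were lower in MB-3, beside 3.22% and 3.90% of all genes. Cd44, the hyaluronan receptor, had 1.122, 0.997 and 1.78 CPM in DMSO and 0.482, 0.319 and 0.746 in MB-3. Its log2 fold change was -1.33 ± 0.32 (SE), with an adjusted p of 0.140 without the block and 6.19e-04 with it. Itga3, the integrin α3 chain, a laminin receptor, had 35.6, 27.4 and 51.3 CPM in DMSO and 25.9, 21.2 and 34.1 in MB-3. C was the highest and B the lowest of both groups, and the letters differed with an adjusted p of 4.72e-09. The log2 fold change of Itga3 was -0.49 ± 0.19, with an adjusted p of 0.359 without the block and 6.24e-07 with it. Spn (CD43), a heavily glycosylated surface protein, had 7.89, 6.98 and 6.10 CPM in DMSO and 9.24, 9.38 and 9.31 in MB-3. Its log2 fold change was 0.41 ± 0.11, and the adjusted p was 0.164 without the block and 0.00382 with it. The most abundant of the list were the matrix genes Fn1, at 1433 ± 240 CPM in DMSO and 1427 ± 88.9 in MB-3, and Lamc1, at 411 CPM and 438 CPM. Neither was called in either fit. Havcr2 (Tim-3), a receptor of galectin-9, had a mean of 0.021 CPM in DMSO and 0.029 in MB-3 and was not tested.

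The 19 enzymes and transporters that build galectin ligands were all tested, and none was called with or without the block. Their median log2 fold change was -0.065, from -0.42 to 0.14. At an unadjusted p under 0.05 there were 5 of them, beside 10.9% of all genes, and the groups of 6 were wholly lower and of 1 wholly higher in MB-3, where 7.37% and 8.22% of all genes tested had such groups. Gcnt2, the enzyme that branches poly-N-acetyllactosamine chains, was the most abundant, at 53.2 CPM in DMSO and 51.1 in MB-3, with a log2 fold change of -0.058 and an adjusted p of 0.752 in the edgeR fit. For B4galt1, a galactosyltransferase, the means were 39.3 and 40.5, the log2 fold change was 0.044 and the adjusted p was 0.858.

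Of 22 genes of the response to damaged endosomes and lysosomes, in which galectin-3, galectin-8 and galectin-9 take part, all were tested. The fit with treatment alone called 0, with 3 at an unadjusted p under 0.05, beside 10.9% of all genes, and the median log2 fold change was -0.033. The groups of 4 were wholly higher and of 1 wholly lower in MB-3, beside 8.22% and 7.37% of all genes. With the block 3 fell, beside 3.90% of all genes. Map1lc3b and Gabarap, which encode proteins that coat autophagosomes, had log2 fold changes of -0.19 and -0.15, with adjusted p-values of 0.0176 and 0.0282 with the block and of 0.243 and 0.402 without it. Tfeb, a transcription factor of lysosomal genes, had 16.5, 22.3 and 18.7 CPM in DMSO and 15.9, 17.4 and 15.04 in MB-3. Its log2 fold change was -0.25, with an adjusted p of 0.0279 with the block and 0.390 without it. Map1lc3b shares 58 bp of exon with Zcchc14 on the opposite strand. The 2 most abundant genes were Vcp, an ATPase that extracts proteins from membranes, with a log2 fold change of 0.029, and Nbr1, an autophagy receptor, with 0.054, and neither was called.

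Of 17 interferon-inducible genes other than Lgals9, 15 were tested, and their median log2 fold change was -0.099. The fit with treatment alone called 0, with 4 at an unadjusted p under 0.05, beside 10.9% of all genes, and the same number had groups wholly lower in MB-3, where 7.37% of all genes tested had such groups. With the block 4 fell and 0 rose, beside 3.90% and 3.22% of all genes. B2m, the light chain of MHC class I, had 35.1, 35.9 and 41.2 CPM in DMSO and 25.2, 26.5 and 30.3 in MB-3. Its log2 fold change was -0.45 ± 0.084 (SE), with an adjusted p of 0.0518 without the block and 7.08e-07 with it. Psmb8, a subunit of the immunoproteasome, had 4.69, 3.35 and 8.35 CPM in DMSO and 2.49, 2.10 and 2.75 in MB-3, with a log2 fold change of -1.16 ± 0.27 and adjusted p-values of 0.116 without and 2.52e-06 with the block. Isg15, a ubiquitin-like protein, had 1.04, 0.837 and 2.43 CPM in DMSO and 0.723, 0.296 and 0.303 in MB-3, with a log2 fold change of -1.67 ± 0.43 and adjusted p-values of 0.173 without and 8.91e-04 with the block. C was the highest DMSO library for these genes. Tap1, the peptide transporter, had 2.95, 3.83 and 5.33 CPM in DMSO and 2.93, 2.41 and 2.985 in MB-3. Its groups overlapped, so it was not among the 4 genes with groups wholly lower, and its log2 ratio for A was -0.007. Its log2 fold change was -0.54, with edgeR adjusted p-values of 0.324 without and 0.0256 with the block. Tap1 shares 212 bp of exon with Psmb9 on the opposite strand. Irf1 and Bst2, the most abundant of the list by the mean over all 6 libraries, had log2 fold changes of -0.099 and -0.061 and were not called. No gene of this list rose in either fit.

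**Figure D4:**
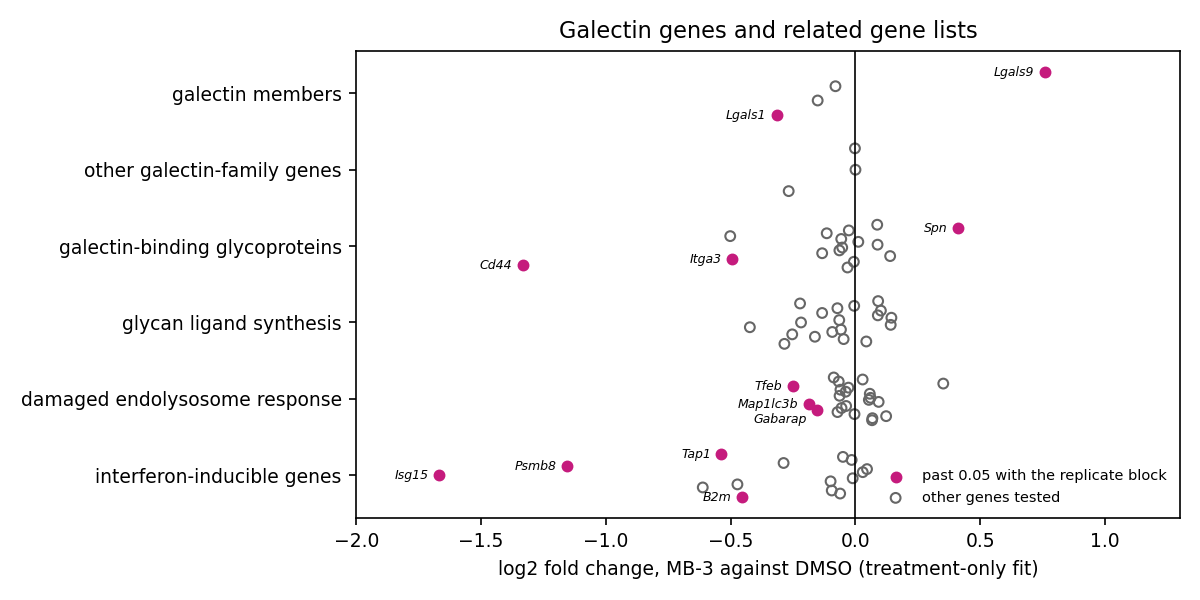
Log2 fold change of MB-3 against DMSO, from the edgeR fit with treatment alone, for the 4 galectins and the tested genes of 5 related lists, with filled and named points for genes past an adjusted p of 0.05 with the replicate block. Lgals9 lies at 0.76, Spn at 0.41 is the other filled point to the right of 0, and the filled interferon-inducible genes lie between -1.67 and -0.45.

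Markers of cell types were examined as a description. Fewer cells of a type and less RNA per cell cannot be told apart in bulk RNA, and marker levels cannot separate them either. The 8 ES cell markers summed to 4787, 4966 and 4476 CPM in DMSO and 4473, 4798 and 4551 in MB-3, with Dppa5a as the most abundant, and none was called in either fit. Nanog had 264 ± 9.14 CPM in DMSO and 251 ± 7.33 in MB-3, and Pou5f1 had 672 ± 35.4 and 676 ± 35.1. The other ES cell markers were Sox2, Zfp42, Esrrb, Klf4 and Tdgf1, with log2 fold changes from -0.15 (Klf4) to 0.066 (Zfp42). Of the 8 markers, the groups of 2, Esrrb and Klf4, were wholly lower in MB-3 and of 0 wholly higher. Such groups made up 7.37% and 8.22% of all genes tested. The ES cell label was thus borne out by high levels of its markers. The macrophage markers matched in the table, 5 of 6 (all but Adgre1), summed to 8.79 to 9.24 CPM in DMSO and 7.68 to 8.44 in MB-3, nearly all of it Cd68, a lysosomal protein. The defining macrophage genes Ptprc, Csf1r and Lyz2 had 0 to 3 counts in each library, and Itgam, which neutrophils also express, had 17, 8 and 8 counts in DMSO and 16, 10 and 9 in MB-3.

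The summed levels of fibroblast and of extraembryonic endoderm markers were lower in MB-3 than in DMSO within every letter. The 7 fibroblast markers summed to 9.20, 7.58 and 9.90 CPM in DMSO and 6.21, 6.38 and 6.09 in MB-3, with Thy1 as the most abundant. Of these, 2 fell with the block, beside 3.90% of all genes tested. Col1a1, with a log2 fold change of -1.32, had an adjusted p of 0.145 without the block and 0.00226 with it, and Col1a2, with -1.27, had 0.106 and 1.20e-04. Lum and Postn had means under 0.05 CPM. The 7 markers of extraembryonic endoderm summed to 86.1, 72.6 and 125 CPM in DMSO and 64.2, 63.7 and 78.3 in MB-3. Most of this was Sparc, a matrix protein that other cells also make, which fell with the block (log2 fold change -0.49, adjusted p = 2.98e-06) and had an adjusted p of 0.260 without it. Gata4, Gata6, Sox7 and Dab2 were not called in either fit, and Sox17 and Foxa2 were too low to be tested. The 6 trophoblast markers summed to 75.8, 69.1 and 76.5 CPM in DMSO and 78.1, 75.5 and 80.3 in MB-3, with Tfap2c as the most abundant, at 61.2 to 66.5 CPM in DMSO and 70.4 to 71.8 in MB-3. With the block Tfap2c rose (log2 fold change 0.17, adjusted p = 0.0322) and Eomes fell (-0.69, adjusted p = 2.43e-04), and neither was called without it. Cdx2, Gata3 and Hand1 were not called in either fit, and Elf5 was too low to be tested. No marker was at 0 in all libraries. Thy1 had 3.18, 3.49 and 3.46 CPM in DMSO and 3.11, 3.78 and 2.47 in MB-3, and Dcn had 0.540, 0.219 and 0.315 in DMSO and 0.281, 0.273 and 0.490 in MB-3, so that the groups of both overlapped. Pdgfrb had 2.12, 1.81 and 2.52 CPM in DMSO and 1.63, 1.503 and 1.47 in MB-3, without overlap and with an adjusted p of 0.102 with the block. The groups of 3 of the 5 tested markers were thus wholly lower in MB-3, where 7.37% of all genes tested had such groups. Lgals1, which is also abundant in fibroblasts, had wholly lower groups in MB-3, as had these 3 and the sum of the list, but not Thy1 or Dcn. Lgals1 was chosen on this contrast and these 3 were picked out by it, so nothing is read from their likeness. The part of fibroblasts in the galectin values was not tested.

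Across the 6 libraries, genes with the pattern most like each galectin were sought among 12065 genes with a mean of at least 5 CPM, by Pearson's r of log2(CPM + 0.5), as a description. The libraries share their treatment and letters, and with 6 points many genes reach a high r. For Lgals9 the nearest were Tnip1 (r = 0.993), Las1l (0.991) and Txnrd3 (0.988), with 10 genes over 0.98. For Lgals1 they were Rpp30 (0.993), Ntn1 (0.984) and Oxct1 (0.983), with 5 genes over 0.98. For Lgals3 they were Eef1b2 (0.997), Aurkaip1 (0.993) and Cdkn1c (0.991), with 14 genes over 0.98. For Lgals8 they were Dtd2 (0.996), Gm12919 (0.988) and Gm4221 (0.988), with 6 genes over 0.98. Between the members, r was -0.84 for Lgals1 and Lgals9, which differed between treatments in opposite directions, 0.58 for Lgals3 and Lgals8, and -0.039 for Lgals3 and Lgals9.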

How the data were processed

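Raw counts per Ensembl gene of 3 DMSO and 3 MB-3 RNA-seq libraries were used. The authors trimmed the single-end polyA reads, used Bowtie for alignment to mm10 and GenomicAlignments for counting over exons, and deposited the counts without normalisation. Versions, annotation release and use of strand are not given in the sources used here. The H3K9ac peak positions, on mm9, were not used here.

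Of 30677 genes, 30540 were paired with a symbol in GENCODE M21 (GRCm38). All 4 galectins matched by symbol, and 3 of them in the RefSeq promoter table (GRCm38.p6). edgeR 4.0.16 in R 4.3.3 (filterByExpr, TMM, glmQLFit, glmQLFTest, treatment only) was fitted to 20027 genes, with Benjamini-Hochberg adjustment and a threshold of 0.05. Alternatives were RLE and upper quartile normalisation, no filter, at least 1 CPM in 3 libraries, DESeq2 1.42.0, limma-voom (limma 3.58.1), the replicate block, and each library left out. CPM is on TMM-normalised library sizes. Plots used Python 3.11.15 and matplotlib 3.10.9. Totals were 46863700 to 51137896 counts in DMSO and 42270312 to 49334434 in MB-3. Replicates of a group differed by more than sampling noise, so none was a copy.

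Same-letter libraries deviated together from their group means (r = 0.184 for A, 0.381 for B and 0.292 for C, over 20027 genes). The letters were therefore taken to pair the libraries, from the data and not from the labels. All other pairs had a negative r, but subtracting the group means makes these negative on balance once the same-letter r is positive. The negative values thus add little. The fit with treatment alone and the letter test were tested on simulated counts, and in both unchanged genes made up a larger share of the calls than the threshold. The treatment term of the blocked fit was not simulated.

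The members and lists were chosen with earlier results of these data known. Genes named were the 4 members, the rest of the galectin family, from each list those called in either fit (at most 6) and the 2 most abundant, the markers, and the 3 genes most like each member. Havcr2 was named outside this rule, after its values were seen.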

Additional observations from a re-analysis of the deposited data

How the results depend on the processing

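The fit with treatment alone called 41 genes. It called 39 with RLE and 25 with upper quartile normalisation, 194 with no filter on low counts, 24 with at least 1 CPM in 3 libraries, 192 with DESeq2, 18 with limma-voom and 1425 with the replicate block. With 1 library left out the count was 0 to 520. It was 3 without DMSO A, 520 without DMSO B, 5 without DMSO C, 62 without MB-3 C, and 0 in edgeR without MB-3 A or MB-3 B, where 1440 and 1716 genes had an unadjusted p under 0.05. Of the 4 galectins, chosen on this contrast, 1 was called, and 2 with no filter, DESeq2 or the replicate block, and 0 to 2 with 1 library left out. From 0 genes of the related lists, the count was 4 with no filter, 3 with DESeq2, 10 with the block and 0 to 5 with 1 library left out. The letter test called 1570 genes, 665 with DESeq2, and 245 (without DMSO B) to 2314 with 1 library left out. Lgals3 turned from -0.15 to 0.009 without DMSO B, and was -0.257 to 0.009 with 1 library left out. With the longest transcript as length, the DMSO levels were 114 for Lgals1, 16.6 for Lgals3, 2.99 for Lgals8 and 4.001 for Lgals9, in the same order. The causes of these differences were not tested. Where a library was left out, the spread of the group with 2 was pooled with the other. Lgals9 had 274 to 540 counts per library, and how far this limits its precision was not tested.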
